A study of Mus musculus with 14 samples.

Results

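The interaction of pressure overload with the injected vector was followed in mouse ventricles: the response to transverse aortic constriction (TAC) under a JP2NT vector minus the response under a GFP vector, gene by gene. It takes all 14 of the 14 libraries in the series, in 4 groups: Sham+GFP (3 libraries), TAC+GFP (4), Sham+JP2NT (3) and TAC+JP2NT (4). The mice were C57BL/6N males that had sham or TAC surgery at 9 to 10 weeks of age. Echocardiography 2 weeks after surgery kept only TAC mice whose ejection fraction was 40 to 60%, and AAV2/9 carrying GFP or JP2NT was then given by tail vein (1e+12 viral genomes). Ventricles were taken 8 weeks after surgery, 6 weeks after the injection, and polyadenylated RNA was sequenced. Every group therefore carries an AAV vector, TAC mice with milder or more severe dysfunction at the time of injection are not represented, and nothing in the sources used here names the promoter of the vector. The labels do not say that each library is a separate animal, so p-values measure the spread between these samples, which may in part be technical.

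Junctophilin-2, the product of Jph2, tethers the T-tubule membrane of cardiomyocytes to the sarcoplasmic reticulum and so keeps calcium channels next to ryanodine receptors. In stressed hearts calpain cuts it, and the N-terminal fragment, JP2NT, is known to enter the nucleus and to repress transcription, including that driven by MEF2 factors. Pressure overload by TAC is known for a return of fetal cardiomyocyte genes such as natriuretic peptides and beta-myosin heavy chain, for fibrosis, and for a loss of transcripts for fuel oxidation and ion channels.

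Each library held an estimated 8650189 to 14460609 reads assigned to listed genes. This estimate rests on a value of 1 read inferred from the commonest low value in each library, as do the counting variances below. The deposited values are scaled counts, with 1 scaling set for the 7 GFP libraries and another for the 7 JP2NT libraries. Levels of the vectors set side by side therefore carry an offset, a median of -0.0841 (log2, JP2NT minus GFP) in sham and -0.0792 in TAC hearts, which cancels in the interaction. Over abundant genes, replicates 1 and 2 of Sham+JP2NT had 1.36 times the variance that counting alone gives. Other pairs within groups had 3.53 to 31.1 times. Over a wider set of genes the ratio was 1.22, beside 1.71 to 7.87 for other pairs. The limit for averaging was a ratio under 2 over abundant genes, so these 2 libraries were averaged, with n = 2 in that group. On the first principal component (50% of the variance), the shams lay at -42.6 to -38.8, the TAC+GFP libraries at 32.8 to 43.5 and TAC+JP2NT replicates 1 to 3 at 19.5 to 23.5. TAC+JP2NT replicate 4 stood apart at -6.18, between the surgeries. Interactions and list medians that move by over 1.5 times when it is left out are therefore also given without it. Single-gene responses under JP2NT and adjusted p-values can move as well, and most are given only with it. Scgb1a1, a marker of airway club cells, was at 864 in TAC+JP2NT replicate 2 and at most 1.29 in the other 13 libraries. Sftpc, a marker of alveolar cells, was at 23.4 there, at 9.63 in TAC+JP2NT replicate 4 and at 0 elsewhere. All 14 cardiomyocyte markers were listed above 0 in every group. The summed level of these markers was 1320000 to 1370000 in Sham+GFP, 940000 to 999000 in TAC+GFP, 1250000 to 1260000 in Sham+JP2NT and 876000 to 1080000 in TAC+JP2NT. The marker Myh6 weighs heavily in this sum, with means of 484946, 174501, 473715 and 227062 in these groups. Over the 14 markers the median TAC response was -0.194 under GFP (3 rose, 6 fell) and -0.177 under JP2NT (3 rose, 5 fell), so the sum does not describe most markers. In bulk tissue, fewer cells of a type and less RNA per cell cannot be told apart.

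Jph2 itself was at 8348, 8107 and 7827 in Sham+GFP and at 6142, 6071, 6837 and 6247 in TAC+GFP. Under JP2NT it was at 6642, 6715 and 6938 in sham and at 5906, 5959.7, 6204 and 6575 in TAC hearts. The GFP groups did not overlap and the JP2NT groups did not overlap. Jph2 fell under GFP (log2 change -0.36 ± 0.063 SE, limma with Benjamini-Hochberg adjustment, adjusted p = 0.000329), the change under JP2NT was -0.15 ± 0.071 (adjusted p = 0.134), and the interaction was 0.21 (adjusted p = 0.421). No JP2NT library reached the Sham+GFP range, and reads from the vector's fragment and from the mouse gene cannot be told apart in this value, so it does not check the vector labels.

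Overload changed ventricular gene expression broadly under both vectors, and for most genes the 2 responses had the same sign. Of 13208 genes tested, 6341 (48% of those tested) were called under GFP and 4203 (31.8%) under JP2NT at an adjusted p under 0.05. With the averaged shams, n is 2 in Sham+JP2NT and 3 in Sham+GFP, so counts called, here and in the gene lists, do not compare with equal power. With 14 separate libraries the counts were 6456 under GFP and 5362 under JP2NT. The JP2NT count was 1853 without Sham+JP2NT replicate 3. On the mean of both responses 7285 genes (55.2%) were called. Called in both with the same sign were 3496 genes, and 3 genes, Fam32a, Foxc1 and Retreg1, were called in both with opposite signs. A further 2842 genes were called under GFP alone and 704 under JP2NT alone, which does not by itself show a difference between vectors. Over genes, the responses under the vectors correlated with Pearson's r = 0.772 and Spearman's rho = 0.778, as a description, since genes are not replicates.

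The difference between the responses was called for 10 genes, 5 with a positive and 5 with a negative interaction (0.0757% of 13208 genes tested, 0.0379% in each direction). At an unadjusted p under 0.05 there were 1492 genes (11.3%), 773 positive (5.85%) and 719 negative (5.44%). The median interaction over all genes was 0.0065 (log2), with quartiles of -0.171 and 0.175. Of the 10, Mylk4, Scn4b, Rtn4r and Gal3st3 fell under both vectors and by less under JP2NT, and Cpox fell under GFP alone. Efhd2 and Gpx3 rose under both and by less under JP2NT. Eif4ebp1, Hist1h1c and Retreg1 rose under GFP, and of these Retreg1 fell under JP2NT. The count moved with single libraries. It was 4, 2 and 5 without Sham+GFP replicate 1, 2 or 3, 6 and 4 without TAC+GFP replicate 1 or 2, 54 without TAC+GFP replicate 3, 18 without TAC+GFP replicate 4, 6 without TAC+JP2NT replicate 2 and 49 without TAC+JP2NT replicate 3. Without Sham+JP2NT replicate 3, limma called 0 genes, with 1066 at an unadjusted p under 0.05. The lone averaged sample that then stands for Sham+JP2NT is assumed to vary like the other groups. Without TAC+JP2NT replicate 4 there were 9 calls, 8 of them among the 10.

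**Figure D1:**
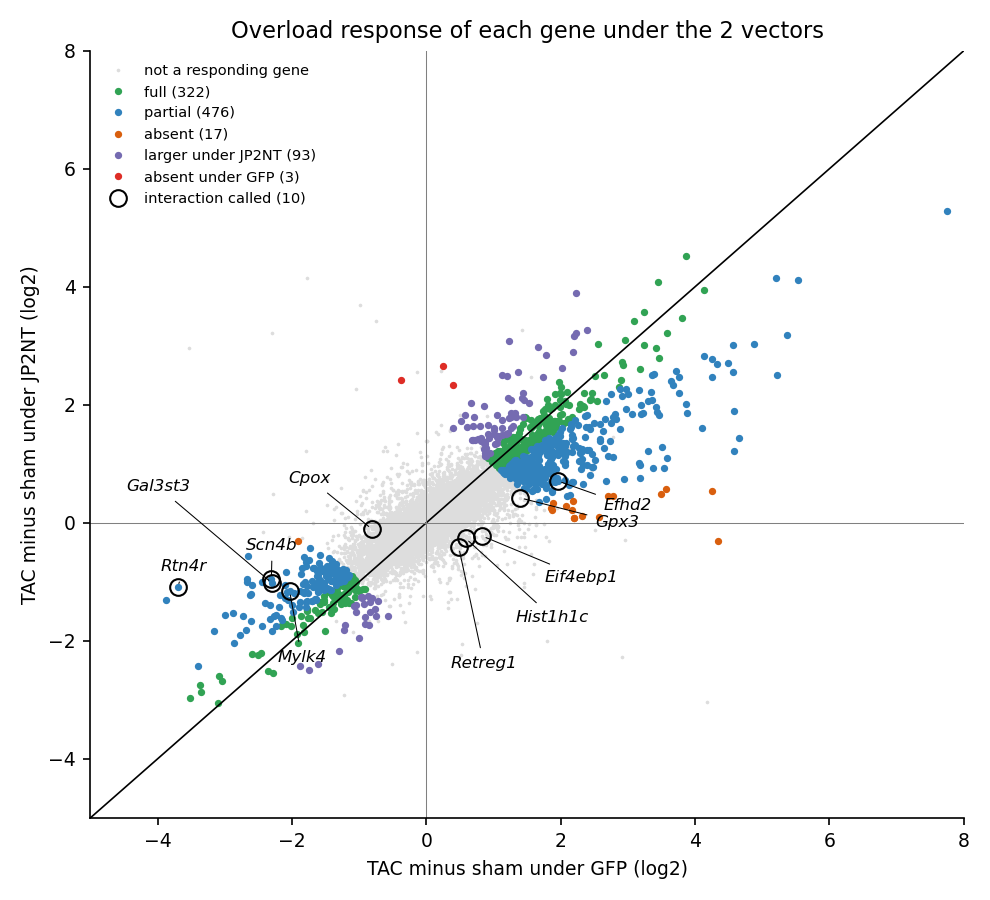
Response to TAC of each gene tested, under GFP (x axis) and under JP2NT (y axis), both as log2 differences of TAC minus sham group means. The diagonal marks equal responses, colours mark the response classes of genes that changed at least 2-fold on the mean of both responses, and circles mark the 10 genes called in the interaction; 1 gene lies outside the axes. Most coloured points that rose lie below the diagonal.

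Among the genes whose fall was smaller, Mylk4 encodes a kinase of the myosin light chain kinase family that is enriched in striated muscle. Its level was 4532, 4482 and 4604 in Sham+GFP and 1069, 1180.0, 1049.8 and 1134 in TAC+GFP. With JP2NT it was 4326, 4444 and 4328 in sham and 1811, 1839.7, 1933 and 2265 in TAC libraries. The TAC+JP2NT libraries all lay above the TAC+GFP libraries, while the JP2NT shams lay just below the GFP shams. After the median offset was taken off, JP2NT minus GFP was 0.025 in the shams and 0.90 in TAC hearts. Mylk4 (chr13:32700834-32783954, minus strand, build mm10) fell 4.1-fold under GFP and 2.23-fold under JP2NT. Its interaction was 0.88 ± 0.11 (SE, 95% interval 0.64 to 1.12, adjusted p = 0.00894).

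Scn4b encodes the beta-4 subunit of voltage-gated sodium channels, which shapes channel gating. It was at 1119, 1120.4 and 1121 in Sham+GFP and at 265, 169, 233 and 249 in TAC+GFP. In JP2NT hearts it was at 961, 1018 and 1049 in sham and at 532, 579, 512 and 487 with TAC. No TAC library of either vector reached its sham range, and every TAC+JP2NT value was above every TAC+GFP value. The fall was 4.95-fold under GFP and 1.93-fold under JP2NT, with an interaction of 1.35 ± 0.18 (95% interval 0.97 to 1.74, adjusted p = 0.00957). Scn4b lies at chr9:45138395-45154152, plus strand.

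Rtn4r encodes the Nogo receptor, a surface receptor known from neurons, where it limits axon growth. It was a low transcript, at 184, 122 and 112 in Sham+GFP and at 10.7, 9.43, 7.39 and 11.1 in TAC+GFP. The JP2NT libraries had 53.3, 62.2 and 91.7 in sham and 33.1, 34.4, 23.5 and 47.0 in TAC hearts. None of the 4 groups overlapped. Rtn4r (chr16:18127642-18152408, plus strand) fell 13-fold under GFP and 2.14-fold under JP2NT, on the log2(value + 1) scale, which understates changes of low genes. Its interaction of 2.6 ± 0.39 was the largest in size among the 10 (95% interval 1.78 to 3.43, adjusted p = 0.0241). Part of it lay in the shams, where JP2NT minus GFP was -0.81 after the median offset was taken off, beside 1.79 in TAC hearts.

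Gal3st3 encodes a Golgi sulfotransferase that adds sulfate to galactose on glycans. Its values were 272, 262 and 252 in Sham+GFP and 56.5, 45.1, 47.3 and 62.9 in TAC+GFP. They were 253, 196 and 234 in Sham+JP2NT and 115, 130.2, 87.5 and 122 in TAC+JP2NT. Shams overlapped between the vectors and TAC libraries did not. The fall was 4.91-fold under GFP and 2.03-fold under JP2NT (interaction 1.27 ± 0.22, adjusted p = 0.0473; 0.0729 without TAC+JP2NT replicate 4). Gal3st3 (chr19:5298331-5308738, plus strand) shares exons with AC125059.4 on the other strand, and the strand setting of the counting is not given in the sources used here.

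Cpox encodes coproporphyrinogen oxidase, an enzyme of haem synthesis. It was at 611, 559 and 552 in Sham+GFP and at 353, 329.7, 301 and 326 in TAC+GFP. Under JP2NT the shams had 450.1, 444 and 464 and the TAC libraries 393, 444, 431 and 425. All TAC+JP2NT values lay above the TAC+GFP values, and the JP2NT shams lay below the GFP shams. Cpox (chr16:58670292-58717636, plus strand, sharing exons with Gpr15 on the other strand) fell 1.75-fold under GFP. Under JP2NT the log2 change was -0.11 (adjusted p = 0.366), and the interaction was 0.70 ± 0.11 (adjusted p = 0.0379). After the median offset was taken off, JP2NT minus GFP was -0.25 in the shams and 0.45 in TAC hearts.

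**Figure D2:**
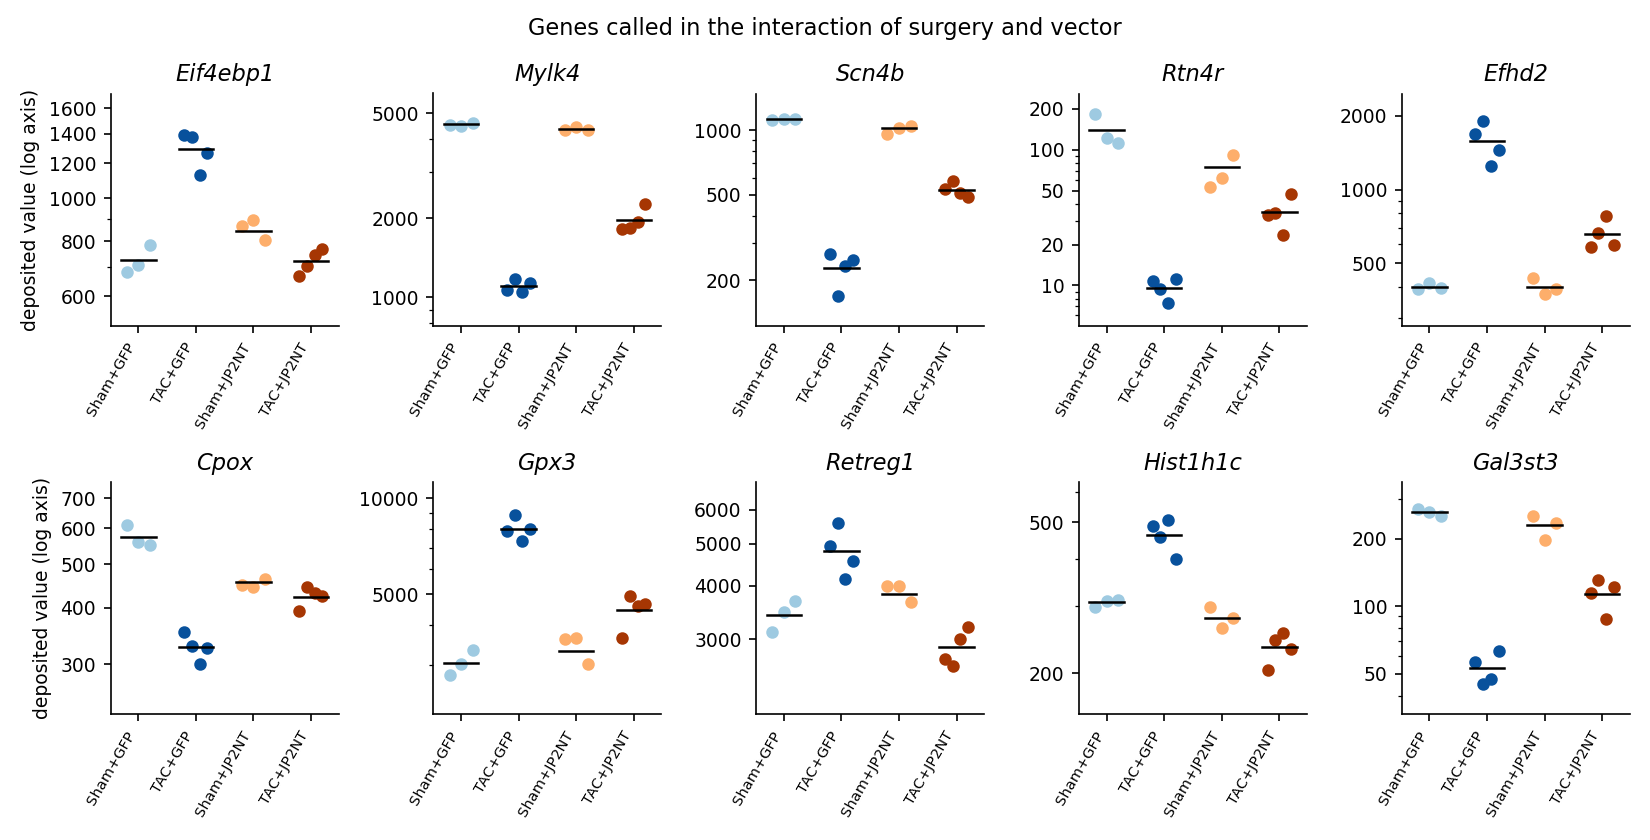
Deposited value (log axis) of the 10 genes called in the interaction, in every library of the 4 groups; each point is a library and each bar a group mean. The genes were chosen by the interaction in these same libraries. For every one of them, no TAC+JP2NT point lies in the range of the TAC+GFP points.

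Efhd2 encodes swiprosin-1, a calcium-binding protein that associates with actin. Its level was 392, 414 and 395 in Sham+GFP and 1696, 1899, 1249.9 and 1457 in TAC+GFP. With JP2NT it was 434, 376 and 393 in shams and 584, 667, 782 and 595 in TAC hearts. The shams of both vectors shared a range, and the TAC ranges were separate. Efhd2 (chr4:141858142-141874920, minus strand) rose 3.88-fold under GFP and 1.63-fold under JP2NT (interaction -1.25 ± 0.19, 95% interval -1.65 to -0.85, adjusted p = 0.0241).

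Gpx3 encodes the secreted glutathione peroxidase. It was at 2784, 3016 and 3345 in Sham+GFP and at 7884, 8837, 7341 and 8029 in TAC+GFP. In the JP2NT groups it was at 3619, 3645 and 3019.9 in sham and at 3652, 4951, 4606 and 4657 in TAC libraries. The GFP groups were far apart, whereas the lowest TAC+JP2NT value lay just above the highest Sham+JP2NT value. Gpx3 (chr11:54902453-54910377, plus strand) rose 2.63-fold under GFP and 1.34-fold under JP2NT, with an interaction of -0.97 ± 0.16 (adjusted p = 0.0379).

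Eif4ebp1 encodes 4E-BP1, which binds the cap-binding factor eIF4E and represses cap-dependent translation until mTORC1 phosphorylates it. Its values were 682, 705 and 783 in Sham+GFP and 1388, 1379, 1131 and 1264 in TAC+GFP. They were 864, 895 and 803 in Sham+JP2NT and 667, 704, 746 and 766 in TAC+JP2NT. TAC raised it above every sham under GFP, and under JP2NT the TAC libraries all lay below their shams. Eif4ebp1 (chr8:27260329-27276674, plus strand) rose 1.78-fold under GFP, while the log2 change of -0.22 under JP2NT did not pass the test (adjusted p = 0.0847). It had the smallest p of all genes for the interaction, -1.06 ± 0.13 (95% interval -1.32 to -0.79, adjusted p = 0.00766). After the median offset was taken off, JP2NT minus GFP was 0.30 in the shams and -0.76 in TAC hearts.

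Retreg1 encodes FAM134B, a receptor that sends endoplasmic reticulum into autophagy. It was at 3120.1, 3472 and 3690.5 in Sham+GFP and at 4949, 5585, 4138 and 4556 in TAC+GFP. JP2NT libraries had 3989.7, 3993 and 3661 in sham and 2701, 2610.4, 3013 and 3205 in TAC hearts. TAC libraries lay above their shams under GFP and below them under JP2NT. Retreg1 (chr15:25843180-25973687, plus strand) rose by 0.48 (log2, adjusted p = 0.00116) under GFP and changed by -0.41 (adjusted p = 0.0132) under JP2NT, an interaction of -0.89 ± 0.15 (adjusted p = 0.0456).

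Hist1h1c encodes the linker histone H1.2. It was at 299, 310.4 and 312 in Sham+GFP and at 489, 455, 507 and 401 in TAC+GFP. Sham+JP2NT hearts had 299, 264 and 279 and TAC+JP2NT hearts 204, 245, 256 and 232. The JP2NT TAC values lay below all shams and the GFP TAC values above them. Hist1h1c (chr13:23738808-23740367, plus strand) rose under GFP by 0.58 (adjusted p = 0.000175), was at -0.26 under JP2NT (adjusted p = 0.075), and had an interaction of -0.85 ± 0.14 (adjusted p = 0.0456; 0.0727 without TAC+JP2NT replicate 4). Many histone messages carry no poly(A) tail, so a poly(A) library reads only part of them.

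In all 10 genes the differences of the TAC libraries from the mean of their own shams did not overlap between vectors. The 10 were chosen by the interaction in these same libraries, so this separation describes them and adds no support to the calls. For Mylk4 they were -2.09, -1.94, -2.11 and -2.0 under GFP and -1.27, -1.24, -1.17 and -0.943 under JP2NT. For Eif4ebp1 they were 0.941, 0.932, 0.646 and 0.807 under GFP and -0.334, -0.255, -0.173 and -0.133 under JP2NT. Over 24 alternative settings, Eif4ebp1 and Mylk4 were each called in 23, Scn4b in 22, Rtn4r in 19, Efhd2 in 18, Cpox and Gpx3 in 17, Retreg1 in 13, and Hist1h1c and Gal3st3 in 11. Their highest adjusted p-values ranged from 0.0527 for Eif4ebp1 to 0.198 for Gal3st3, each without Sham+GFP replicate 1 or without Sham+JP2NT replicate 3. In every setting the 10 interactions kept their sign. The settings refit mostly the same libraries from which the 10 were chosen. They show how the calls depend on processing and on single libraries, and are not independent support.

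Promoters are shown for 3 of these genes that moved in different ways, Mylk4 and Rtn4r (smaller fall) and Efhd2 (smaller rise), because repression by JP2NT is known to involve MEF2 sites. The RefSeq promoter table used matched 7 of the 10 genes. Eif4ebp1, Hist1h1c and Gal3st3 were not matched. Each sequence is the 250 bases before the RefSeq start in build GRCm38.p6, written 5′ to 3′ on the gene's strand, with a motif match in capitals.
Mylk4, chr13:32783965-32784214, minus strand: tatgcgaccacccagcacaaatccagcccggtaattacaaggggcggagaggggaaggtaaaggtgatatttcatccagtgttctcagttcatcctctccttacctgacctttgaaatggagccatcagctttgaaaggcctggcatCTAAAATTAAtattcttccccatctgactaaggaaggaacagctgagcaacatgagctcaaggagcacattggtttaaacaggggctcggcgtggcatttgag
Rtn4r, chr16:18127392-18127641, plus strand: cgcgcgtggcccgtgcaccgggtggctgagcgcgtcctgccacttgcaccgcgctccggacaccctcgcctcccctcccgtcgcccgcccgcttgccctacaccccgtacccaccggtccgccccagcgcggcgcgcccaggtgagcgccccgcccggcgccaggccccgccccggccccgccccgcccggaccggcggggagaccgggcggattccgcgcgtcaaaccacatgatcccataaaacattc
Efhd2, chr4:141874921-141875170, minus strand: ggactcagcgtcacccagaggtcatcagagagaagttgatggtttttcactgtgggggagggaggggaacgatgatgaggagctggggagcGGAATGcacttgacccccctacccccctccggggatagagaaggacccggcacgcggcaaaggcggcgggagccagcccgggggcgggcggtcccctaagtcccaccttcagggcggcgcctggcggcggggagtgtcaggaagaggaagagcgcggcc
The capitals in Mylk4 mark a MEF2 match at -103 to -94 from the start, and those in Efhd2 an M-CAT match (CATTCC, read on the other strand) at -159 to -154. The Rtn4r window held none of the motifs searched. Over the 10 promoters of the 7 genes, the MEF2 match in Mylk4 and the M-CAT match in Efhd2 were the 1 match of each motif, so the sequences shown include both genes with a match. On both strands, 2.92% of 32851 RefSeq promoters of the same length held a MEF2 match and 12.6% an M-CAT match. The other motifs searched were TATAAA (12.4% of promoters), the CArG box (1.47%), AP-1 (TGANTCA, 6.75%) and an ATF4 composite (TGATGNAA, 3.45%), each with 0 matches in the promoters of the 7 genes. A match describes these letters only and is neither a bound site nor a cause.

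Several well known genes of the overloaded heart had large interactions that missed the threshold. Lgals3, encoding galectin-3, was at 70.9, 75.3 and 60.3 in Sham+GFP and at 287, 380.4, 393 and 534 in TAC+GFP. Under JP2NT it was at 62.9, 61.7 and 63.9 in sham and at 96.6, 140.2, 147 and 110.2 in TAC hearts. The TAC ranges were separate, and the interaction was -1.55 (adjusted p = 0.0754, called in 7 of 24 settings). Ctgf, a matricellular growth factor of fibrosis, had 12554, 15110.5, 7594 and 8189.9 in TAC+GFP and 4051, 3728, 4086 and 2585 in TAC+JP2NT, from shams of 705 to 814 and 743 to 814. All TAC+JP2NT values of Ctgf lay below all TAC+GFP values, with an interaction of -1.57 (adjusted p = 0.0857). Nppa, encoding atrial natriuretic peptide, had 92909, 112739, 42097 and 85860.3 in TAC+GFP and 20386, 25556, 43020.2 and 23808 in TAC+JP2NT. Here the ranges overlapped, through TAC+GFP replicate 3 and TAC+JP2NT replicate 3, and the shams were at 4049 to 6600.2 and 6460.2 to 8609 (interaction -2.01, adjusted p = 0.108). The 7 other atrial markers, all listed above 0, summed to 2955, 1967, 4156 and 6286 in TAC+GFP and to 1511, 8550, 1544 and 11900 in TAC+JP2NT. They were 1030 to 4457 in Sham+GFP and 4601 to 7292 in Sham+JP2NT. These markers were high in TAC+JP2NT replicates 2 and 4 and low in its replicates 1 and 3, and the part of atrial tissue in the Nppa value was not tested.

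Myh7, the beta-myosin heavy chain, was at 1951, 2392 and 2579.6 in Sham+GFP and at 96812, 98508, 60135 and 90471 in TAC+GFP. It was at 3075, 3062 and 2469 in Sham+JP2NT and at 49966, 36208, 55826 and 55640.5 in TAC+JP2NT. TAC libraries of the vectors did not overlap, yet the interaction of -1.07 had an adjusted p of 0.156. Nmrk2, a nicotinamide riboside kinase, had 2548, 3141, 330.1 and 4327 in TAC+GFP and 368, 285, 473 and 285 in TAC+JP2NT. TAC+GFP replicate 3 lay within the TAC+JP2NT range and the other 3 far above it. The interaction of Nmrk2 was -2.20 (adjusted p = 0.379), and without TAC+GFP replicate 3 its adjusted p was 0.000923. That was the 1 setting of 24 in which Nmrk2 was called. Cxcr6, a chemokine receptor of T cells, had 120.1, 119, 79.6 and 92.5 in TAC+GFP and 34.9, 22.9, 24 and 17.2 in TAC+JP2NT (interaction -2.71, adjusted p = 0.0857). Its shams were near 0, at 0.847 to 4.02 under GFP and 1.12 to 4.81 under JP2NT, where the value added before the log weighs. After the median offset was taken off, JP2NT minus GFP of Cxcr6 was 0.76 in the shams and -1.96 in TAC hearts. The TAC ranges of Cxcr6 did not overlap. The other 8 T-cell markers summed to 33.6, 40.6, 55 and 37.1 in TAC+GFP and to 32.2, 38.8, 29.7 and 25 in TAC+JP2NT, ranges that overlap. Their sum was 21.6 to 41.3 in Sham+GFP and 24.5 to 34.7 in Sham+JP2NT, from the 7 of the 8 that are listed.

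**Figure D3:**
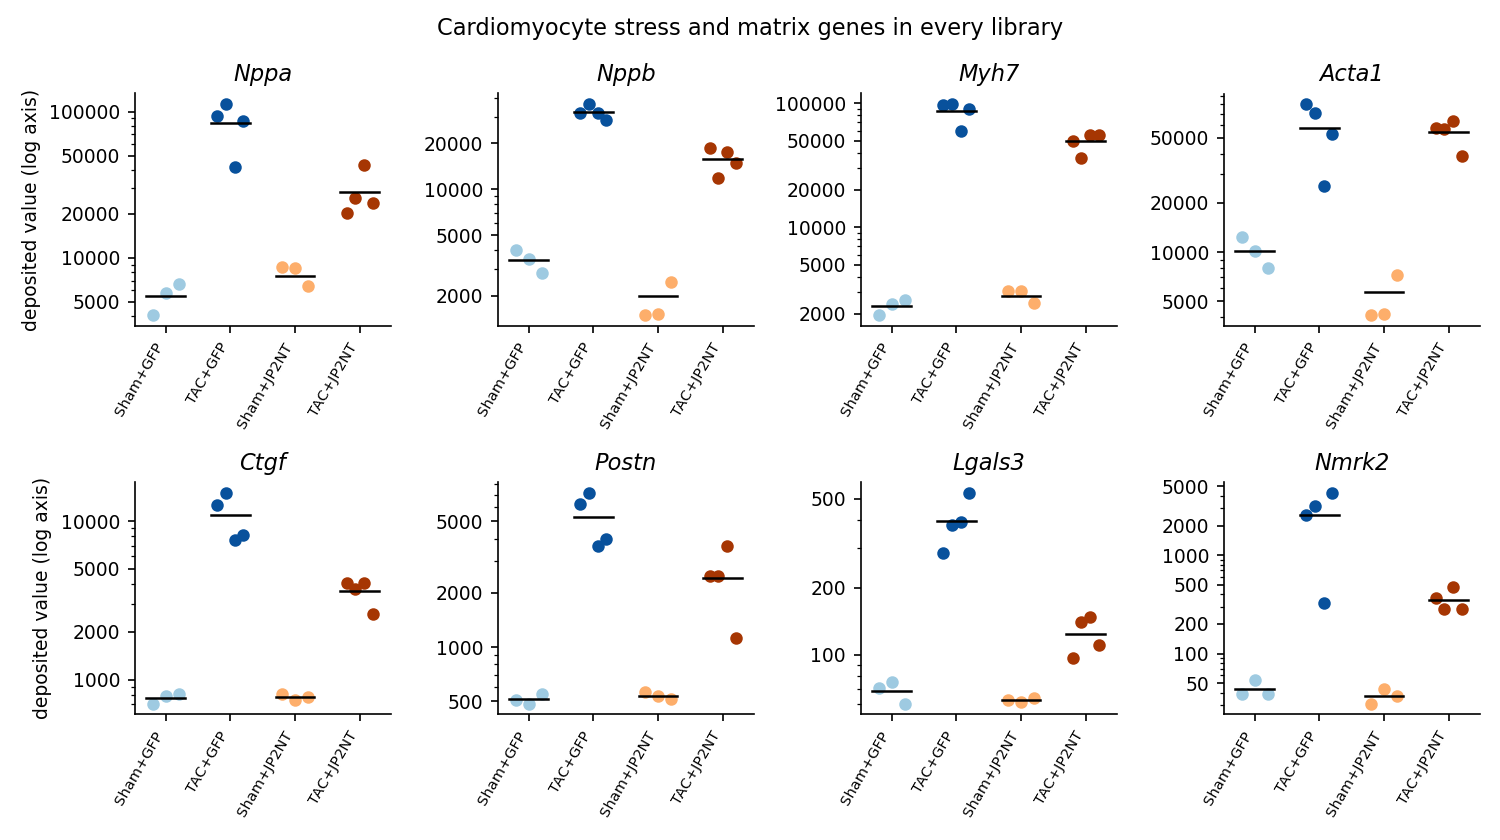
Deposited value (log axis) of 4 cardiomyocyte stress genes (top) and of Ctgf, Postn, Lgals3 and Nmrk2 (bottom) in every library; points are libraries and bars group means. TAC+JP2NT points lie below all TAC+GFP points for Nppb, Myh7, Ctgf and Lgals3, while those of Acta1 overlap them.

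Metabolic and stress genes were also near the threshold. Slc2a1, the glucose transporter GLUT1, rose under GFP (0.84, adjusted p = 0.00039), with 234 to 266 in sham and 328 to 612 in TAC libraries. Under JP2NT its log2 change was -0.37 (adjusted p = 0.111), with 279 to 321 in sham and 218 to 236 in TAC libraries and an interaction of -1.22 (adjusted p = 0.0857). Eno1, a glycolytic enolase, fell by more under JP2NT (-0.71) than under GFP (-0.18), with an interaction of -0.52 (adjusted p = 0.0857). Hsph1, a cytosolic chaperone of the HSP110 family, fell under GFP, where it was at 1287 to 2098 in sham and 452 to 748 in TAC libraries. Its JP2NT values were 546 to 1113 in sham and 856 to 1140.2 in TAC hearts, and the interaction was 1.62 (adjusted p = 0.0906). The Hsph1 shams of the vectors did not overlap, and JP2NT minus GFP in sham, after the offset, was -0.96. Ier3, an immediate early gene, had an interaction of -0.96 (adjusted p = 0.0906). The genes called with opposite signs beside Retreg1 were Fam32a (interaction -0.46, adjusted p = 0.138) and Foxc1, a forkhead transcription factor (-1.10, adjusted p = 0.156).

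Among genes with a group mean of at least 50, the 3 largest interactions by size belonged to genes listed at 0 in some libraries. Amd1, an enzyme of polyamine synthesis, was at 388, 0, 0 and 0 in TAC+GFP, 478, 0 and 559 in Sham+JP2NT and 326, 0, 0 and 0 in TAC+JP2NT, and at 0 in all Sham+GFP libraries. Eif3j1 was at 0, 115, 0 and 933 in TAC+GFP, 0, 0 and 66.6 in Sham+JP2NT and 0 in the other groups. Atp6v0c-ps2, a processed pseudogene, was at 281, 488 and 586 in Sham+GFP, 426, 865, 0 and 686 in TAC+GFP, 832, 881 and 0 in Sham+JP2NT and 631, 312, 524 and 711 in TAC+JP2NT. Libraries at 0 stand beside libraries above 100 within a group, so a fitted value depends on the 1 added before the log, and none of these 3 genes was called (adjusted p = 0.324, 0.381 and 0.512). Gene copies can take reads from one another, so such values are uncertain. Tmprss13, a membrane serine protease that shares exons with 1700003G13Rik on the other strand, was at 77.3, 40.3 and 46.7 in Sham+GFP and 2.72, 3.70, 17.0 and 15.5 in TAC+GFP, and at 22.4, 26.7 and 33.4 in Sham+JP2NT and 22.7, 35, 9.27 and 17.3 in TAC+JP2NT. Its TAC values overlapped between the vectors (interaction 2.09, adjusted p = 0.349).

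To describe full, partial and absent responses, genes were taken that changed on the mean of both responses at an adjusted p under 0.05 and by at least 2-fold, a choice that favours neither vector. There were 911 such genes (6.9% of those tested), of which 636 rose (4.82%) and 275 fell (2.08%). At the limit, Akap11 (mean log2 change 1) was inside and Slc25a36 (0.9995) outside. The class of a gene is its JP2NT response divided by its GFP response: 0.8 to 1.25 was called full, 0.2 to under 0.8 partial, under 0.2 absent, above 1.25 to 5 larger under JP2NT, and above 5 absent under GFP. A gene whose GFP response went against the mean response, as that of Mgam did, was also put in the class absent under GFP. Partial responses were the most frequent, at 476 genes (52.3%), and 322 (35.3%) were full. Another 93 (10.2%) were larger under JP2NT, 17 (1.87%) were absent under JP2NT and 3 (0.329%) absent under GFP. The median ratio was 0.777, and 709 of the 911 responses (77.8%) were smaller under JP2NT. Genes that rose and genes that fell had like ratios, 0.772 and 0.783. A class is a size without a test: of the 476 partial genes 156 had an unadjusted interaction p under 0.05, and 5 (Mylk4, Scn4b, Rtn4r, Efhd2 and Gal3st3) were called.

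The balance of full and partial responses moved with TAC+JP2NT replicate 4. Over the 636 genes that rose, the median difference from own shams was 1.56, 1.69, 1.59 and 1.65 in the TAC+GFP libraries and 1.37, 1.42, 1.45 and 0.85 in the TAC+JP2NT libraries. For the 275 that fell it was -1.40, -1.61, -1.49 and -1.32 under GFP and -1.21, -1.14, -1.35 and -0.777 under JP2NT. Replicate 4 had the smallest response of the 8 in both directions, and for genes that rose all 4 TAC+JP2NT libraries lay below all 4 TAC+GFP libraries. Without replicate 4 there were 1035 responding genes, 461 full, 389 partial and 167 larger under JP2NT, and the median ratio was 0.884. The classes also move with how responders are chosen. Taken on the GFP response alone, 763 were partial and 97 absent (median ratio 0.664), and taken on the JP2NT response alone, 194 were partial and 0 absent (median ratio 0.921).

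**Figure D4:**
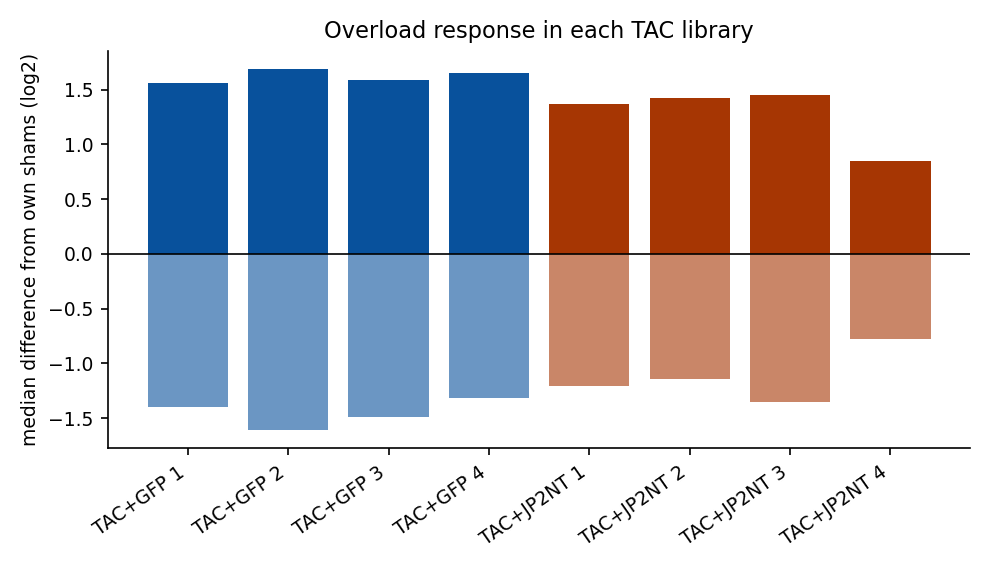
Median log2 difference from the mean of own shams in each TAC library, over the 636 genes that rose (solid bars) and the 275 that fell (pale bars) on the mean response. TAC+JP2NT replicate 4 has the smallest bars, 0.85 and -0.777.

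Full responses included genes of the natriuretic and stretch programme. Nppb, encoding brain natriuretic peptide, was at 3971, 3452 and 2792 in Sham+GFP and at 31763, 36292, 31914 and 28309 in TAC+GFP. In JP2NT hearts it was at 1483, 1510.1 and 2461 in sham and at 18604, 11818, 17636 and 14806 in TAC. Both the shams and the TAC libraries of JP2NT lay below those of GFP, and the responses were 3.24 and 3.01 (log2, ratio 0.93, interaction -0.23, 95% interval -0.80 to 0.33, adjusted p = 0.793). Ankrd1, a titin-binding ankyrin repeat protein, was at 12576 to 14049.8 in sham and 64162 to 79867 in TAC libraries under GFP, and at 10978 to 12104 and 39322 to 71694 under JP2NT (ratio 0.89, interaction -0.28, and -0.14 without TAC+JP2NT replicate 4). Xirp2, a Xin repeat protein that binds actin at the intercalated disc, had a ratio of 0.85, from responses of 2.33 and 1.98, and its interaction of -0.35 was -0.15 without TAC+JP2NT replicate 4. Lrp8, a receptor of the LDL receptor family, had responses of 4.14 and 3.94 (ratio 0.95), and an interaction of -0.20 that was 0.042 without that library. Of the full falls, Acot1, an acyl-CoA thioesterase regulated by PPAR-alpha, had -3.09 under GFP and -3.06 under JP2NT (ratio 0.99), with an interaction of 0.037, or -0.29 without TAC+JP2NT replicate 4. Acot3, which shares exons with Gm49366, had -3.36 and -2.87 (ratio 0.85). Bmp10, an atrial ligand, was in the class with a ratio of 0.81, but its values of 12.7, 1.85, 0 and 76.5 in TAC+GFP and 23.3, 6.85, 0 and 396 in TAC+JP2NT span a wide range and neither response passed the test (adjusted p = 0.0918 and 0.264). Its interaction was 0.63, and -0.90 without TAC+JP2NT replicate 4.

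Partial responses included fetal, hormonal and matrix genes. Sprr1a, a small proline-rich protein of stressed cardiomyocytes, was at 0 to 1.05 in the shams, at 448, 459.7, 103 and 263 in TAC+GFP and at 38.9, 33.2, 98.6 and 16.3 in TAC+JP2NT. As deposited, its TAC ranges came close, through TAC+GFP replicate 3 and TAC+JP2NT replicate 3, without overlapping. That margin is smaller than the median offset between the vectors in TAC hearts (-0.0792), so the ranges are not separate once the offset is taken off. Star, which carries cholesterol into mitochondria, had responses of 4.87 and 3.02 (ratio 0.62, interaction adjusted p = 0.258). Postn, the fibroblast matrix protein periostin, had 6229, 7215, 3634 and 3993 in TAC+GFP and 2484, 2470.3, 3647 and 1121 in TAC+JP2NT, from shams of 483 to 548 and 517 to 563 (ratio 0.63). Without TAC+JP2NT replicate 4, the lowest of those, the ratio of Postn was 0.73. Ccl11, the chemokine eotaxin, fell under both vectors, from shams of 39.2 to 46.2 and 37.9 to 41.4 down to 1.82 to 2.15 in TAC+GFP and 5.99 to 27.8 in TAC+JP2NT (ratio 0.34, interaction 2.58, adjusted p = 0.138). Klhl33, a kelch-like protein, had responses of -2.87 and -2.04 (ratio 0.71). Myh6, the alpha-myosin heavy chain of the adult ventricle, fell under GFP, with 469688 to 508233 in sham and 148694 to 208686 in TAC libraries. It fell under JP2NT too, with 468059 to 482444 and 177883 to 326968, where TAC+JP2NT replicate 4 held the highest TAC value. Its ratio was 0.75, and 0.87 without that library, and its interaction 0.38 and 0.19.

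The 17 absent responses were mostly of low transcripts: the median of their highest group mean was 29.8, beside 105 for partial and 117 for full responses. Before the offset is taken off, their sham mean was lower under JP2NT in 1 of the 17, beside 231 of the 476 partial and 209 of the 322 full responses. The class is computed from these same sham means, so this order is partly built in. Sfrp2, a secreted modulator of Wnt signalling, was at 21.6, 26.7 and 33.9 in Sham+GFP and at 78.8, 125, 166 and 113 in TAC+GFP. It was at 43.8, 50.1 and 43.9 in Sham+JP2NT and at 34.8, 54.0, 90.8 and 55.4 in TAC+JP2NT. The JP2NT groups overlapped and the GFP groups did not (ratio 0.14, interaction -1.79, adjusted p = 0.138). Fgf23, a phosphate-regulating hormone, was listed at 0 in all Sham+GFP libraries, at 10.0, 14, 85.4 and 8.29 in TAC+GFP and at 1.74, 0, 3.08 and 0 in TAC+JP2NT. TAC+GFP replicate 3 held by far the highest value. Sh2d5, which shares exons with Kif17, was at 37.7, 56.9, 2.11 and 22.4 in TAC+GFP and at 0.871, 0.68, 4.19 and 4.81 in TAC+JP2NT, and the lowest TAC+GFP value lay within the TAC+JP2NT range. The long non-coding RNA gene 4833412C05Rik had 12.8 to 19.9 in TAC+GFP and 1.91 to 11.1 in TAC+JP2NT. Gm3055 had 0, 0 and 23.9 in Sham+GFP and 62.0, 54.0 and 35.7 in Sham+JP2NT, and its TAC libraries overlapped between the vectors (42.2 to 74.9 and 22.3 to 59.6). None of these was called in the interaction (adjusted p = 0.251, 0.407, 0.231 and 0.163).

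Of the 93 larger responses under JP2NT, 67 were of genes with a lower sham mean under JP2NT, before the offset is taken off. That also held for 209 of the 322 full and 231 of the 476 partial responses. Here too the sham means enter the ratio that sets the class, so the order is partly built in. The median highest group mean of the 93 was 28.8. Nr4a3, an orphan nuclear receptor induced by stress signals, was at 92.2, 86.4 and 60.1 in Sham+GFP and at 221, 233, 189 and 172 in TAC+GFP. It was at 40.8, 33.3 and 51.7 in Sham+JP2NT and at 258, 279, 210.3 and 308 in TAC+JP2NT. The shams did not overlap between vectors and the TAC libraries did (ratio 1.88, interaction 1.19, adjusted p = 0.107). Acta1, skeletal alpha-actin, had shams of 7983 to 12426 under GFP and 4107 to 7285 under JP2NT, while TAC libraries spanned 25490.0 to 80412 and 38463 to 63236 (ratio 1.37, interaction adjusted p = 0.515). Tbx15, a T-box transcription factor, had responses of 2.23 and 3.22. Aqp8, a water channel, had 2.19 and 3.17. Ncapg, a condensin subunit that shares exons with Lcorl on the other strand, had 1.66 and 2.98. The 3 genes absent under GFP were Tnfsf13, Mgam and Mybl2. Mgam, an intestinal alpha-glucosidase, was at 2.11 to 7.31 in TAC+GFP and 3.84 to 19.3 in TAC+JP2NT. Mybl2, a cell cycle transcription factor, was at 6.49 to 11.3 and 5.23 to 13. Tnfsf13, a TNF family ligand that shares exons with Tnfsfm13, was at 14.5 to 32.7 and 14.3 to 26.9. All 3 were low, overlapped between the vectors in TAC hearts, and had adjusted interaction p-values of 0.335, 0.182 and 0.346.

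Gene lists of cardiac roles were then read in the same fit, beside the background of all genes: 23.8% of genes tested rose and 24.2% fell under GFP, 16.2% rose and 15.7% fell under JP2NT, and the median interaction was 0.0065. Of 16 hypertrophic stress genes, 13 rose and 1 fell under GFP, and 12 rose and 0 fell under JP2NT. Their median responses were 2.21 and 1.85. The median interaction was -0.482, or -0.292 without TAC+JP2NT replicate 4, with 5 members negative and 0 positive at an unadjusted p under 0.05 and 0 called. The mean over the list against own shams was 2.54, 2.52, 1.89 and 2.62 in the TAC+GFP libraries and 1.49, 1.71, 1.83 and 1.56 in the TAC+JP2NT libraries. Every TAC+JP2NT mean was below every TAC+GFP mean, narrowly so against TAC+GFP replicate 3. The 16 ankyrin repeat, Xin and stretch sensor genes did not show such a gap in the median, with responses of 0.569 and 0.639 and a median interaction of -0.0202 (0.00106 without TAC+JP2NT replicate 4). Synpo2l, a Z-disc protein that binds actin, rose under both vectors (2.49 and 1.68, interaction -0.81, adjusted p = 0.151).

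Most ion channel transcripts fell under both vectors. Of 19 potassium and sodium channel genes, 15 fell under GFP and 12 under JP2NT, and Scn4b was the 1 member called in the interaction. The list medians were -0.775 and -0.516, and the median interaction was 0.123, or 0.0441 without TAC+JP2NT replicate 4. Kcnk3, a two-pore potassium channel, had responses of -0.77 and -0.42 (interaction 0.35, adjusted p = 0.156). Kcnd2, a subunit of the transient outward current, had -1.08 (adjusted p = 0.000979) and -0.60 (adjusted p = 0.0769), an interaction of 0.48 that was 0.32 without that library. Hcn2, a pacemaker channel, had -1.20 and -0.80. The calcium handling list has 20 members with those of the dyad. Under GFP 5 rose and 7 fell, and 4 rose and 6 fell under JP2NT, with a median interaction of 0.0173. Atp2a2, the sarcoplasmic reticulum calcium pump SERCA2, fell under both vectors, with shams of 244749 to 255339 and 238120.0 to 248241 beside 105463 to 141424 in TAC+GFP and 130158 to 164542 in TAC+JP2NT (interaction 0.31, adjusted p = 0.559).

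Genes of activated fibroblasts had the most negative median interaction of the process lists, -1.05 over 21 members tested (-0.898 without TAC+JP2NT replicate 4). Under GFP 17 rose and 2 fell, and under JP2NT 10 rose and 1 fell. The median response was 2.07 under GFP and 1.09 under JP2NT. At an unadjusted p under 0.05, 11 were negative and 1 was positive, and 0 were called. Per library, the list mean was 2.22, 2.39, 2.08 and 1.77 in TAC+GFP and 1.24, 1.21, 1.57 and 0.725 in TAC+JP2NT, with no overlap. Cthrc1, a secreted protein of activated fibroblasts, was at 40.6, 48.0, 49.9 and 32.0 in TAC+GFP and 12.2, 6.16, 6.07 and 4.79 in TAC+JP2NT, from shams of 0 to 4.88 and 1.30 to 4.44. Comp, cartilage oligomeric matrix protein, was at 524, 619, 826 and 452 in TAC+GFP and at 133, 164, 302 and 173 in TAC+JP2NT, and its interaction of -2.49 had an adjusted p of 0.0871. Part of it lay in the shams, at 25.1 to 75.8 under GFP and 69.5 to 106 under JP2NT. After the median offset was taken off, JP2NT minus GFP of Comp was 0.90 in the shams and -1.60 in TAC hearts. The summed level of 12 general fibroblast markers was 28200 to 34100 in TAC+GFP and 29100 to 31800 in TAC+JP2NT, ranges that overlap.

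Collagen and matrix genes showed the same order with a smaller gap. Of 34 tested, 28 rose and 1 fell under GFP, and 18 rose and 1 fell under JP2NT. The median interaction was -0.345, and -0.183 without TAC+JP2NT replicate 4. The list mean was 1.42, 1.49, 1.1 and 0.964 in TAC+GFP and 0.859, 0.886, 1.31 and 0.393 in TAC+JP2NT, and TAC+JP2NT replicate 3 lay inside the GFP range. Col1a1, the main fibrillar collagen chain, rose under GFP (1.01) and under JP2NT (0.63, adjusted p = 0.0491), with an interaction of -0.37 (adjusted p = 0.699). Col3a1 had 1.01 and 0.64 (adjusted p = 0.0561 under JP2NT). Without TAC+JP2NT replicate 4 the interaction was -0.17 for Col1a1 and -0.19 for Col3a1, which was -0.37 with it. Lox, which cross-links collagen, rose under both vectors, from shams of 40.7 to 61.4 and 33.2 to 39.0 up to 331 to 863 in TAC+GFP and 73.7 to 239.8 in TAC+JP2NT (interaction -1.63, adjusted p = 0.253). Timp1, an inhibitor of matrix proteases, had a ratio of 0.65, or 0.79 without TAC+JP2NT replicate 4, and interactions of -0.98 and -0.60. Col8a2 and Col12a1 had ratios of 0.57 and 0.58.

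The TGF-beta list covers ligands, receptors and latency proteins. Of 18 genes, 13 rose and 3 fell under GFP, and 8 rose and 3 fell under JP2NT, with 15 negative interactions and a median of -0.183. The ligand gene Tgfb2 rose by 1.80 and 1.19 (ratio 0.66). Ltbp2, a latency protein of the matrix, rose by 4.33 and 2.70, with shams of 56.3 to 61.5 and 61.7 to 71.1 beside 883 to 1608 in TAC+GFP and 278 to 844 in TAC+JP2NT (interaction -1.64, adjusted p = 0.156). Gdf15, a stress-induced ligand of the family, was at 163, 146, 59.6 and 292 in TAC+GFP and 60.8, 55.1, 157 and 19.0 in TAC+JP2NT, and these ranges overlapped (interaction -1.48, adjusted p = 0.537; -0.97 without TAC+JP2NT replicate 4).

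Of 20 autophagy and lysosome genes, 10 rose and 3 fell under GFP, and 5 rose and 6 fell under JP2NT. The interaction was negative in 18 of them, 8 at an unadjusted p under 0.05 and 0 called, with a median of -0.225. The list mean was 0.275, 0.312, 0.273 and 0.238 in TAC+GFP and 0.0141, 0.0423, 0.0487 and -0.0179 in TAC+JP2NT, without overlap. Ctsl, the lysosomal protease cathepsin L, rose under GFP (0.49, adjusted p = 6.75e-05), and its log2 change under JP2NT was 0.076 (adjusted p = 0.508). Bnip3, a mitophagy receptor, rose under both (1.15 and 0.50). Ctsk, the lysosomal protease cathepsin K, had an interaction of -0.92 (adjusted p = 0.22). Macrophages are rich in such enzymes, and the sum of 20 macrophage markers was 6250 to 7800 in TAC+GFP and 4200 to 7500 in TAC+JP2NT (shams 5700 to 6010 and 5020 to 5400). Their part in the lysosomal values was not tested.

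Of 30 cytosolic ribosomal protein genes, 19 rose and 1 fell under GFP, and 9 rose and 1 fell under JP2NT. The interaction was negative in 29 of the 30, with a median of -0.207. By library the list mean was 0.346, 0.376, 0.46 and 0.287 in TAC+GFP and 0.397, 0.0997, -0.0523 and 0.257 in TAC+JP2NT, where replicate 1 lay in the GFP range. Rpl3 rose under both vectors (0.91 and 0.45, interaction -0.46, adjusted p = 0.102). Rplp1 rose under GFP (0.30), and its change under JP2NT was -0.014 (adjusted p = 0.902). Proteasome subunits had a median interaction of -0.0211 (-0.0547 without TAC+JP2NT replicate 4), with 11 of 26 risen under GFP and 10 under JP2NT.

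Endoplasmic reticulum chaperones had mostly positive interactions. Of 18 genes, 2 rose and 9 fell under GFP, and 1 rose and 2 fell under JP2NT. The interaction was positive in 15 of 18, 8 of them at an unadjusted p under 0.05 and 0 called (median 0.264). Hspa5, the chaperone BiP, was at 11191, 9618 and 9108 in Sham+GFP and 6549, 6088, 6665 and 7290.0 in TAC+GFP, and at 7010.4, 7070.2 and 8282 in Sham+JP2NT and 7236, 7247, 6857 and 7505 in TAC+JP2NT. The JP2NT shams lay below the GFP shams, and the TAC libraries of the vectors overlapped. Hsp90b1, the chaperone GRP94, had responses of -0.38 (adjusted p = 0.000503) and 0.023 (adjusted p = 0.852). Hyou1 had -0.52 and -0.093, and Serpinh1, the collagen chaperone HSP47, -0.40 and 0.23. Over the list, JP2NT minus GFP after the offset was -0.193 in sham and 0.0982 in TAC hearts.

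**Figure D5:**
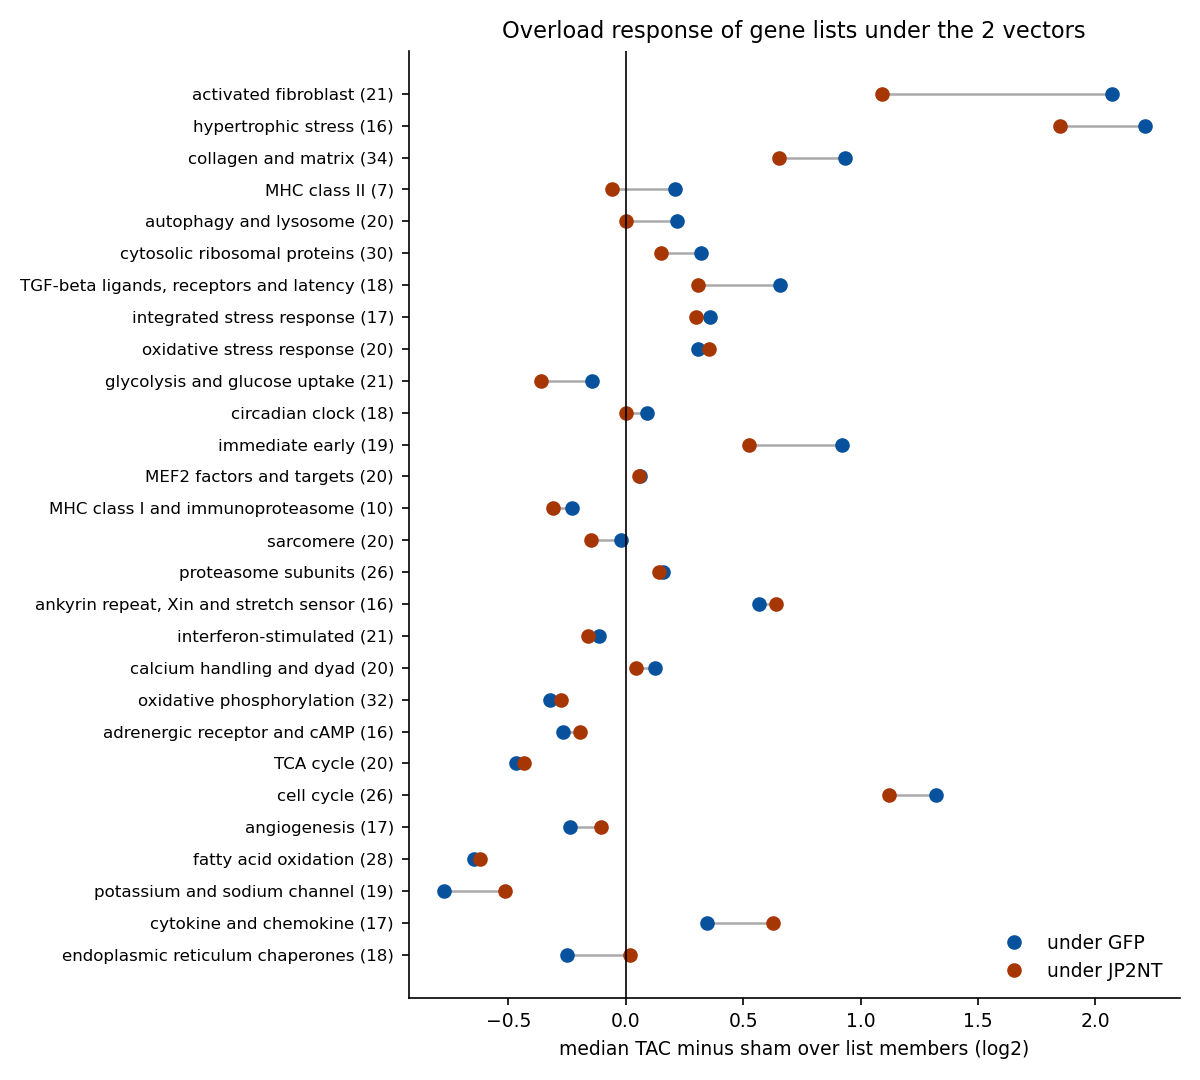
Median response to TAC over the tested members of each process list (number in brackets), under GFP and under JP2NT, as log2 TAC minus sham, ordered by the median interaction. The widest gap is that of the activated fibroblast genes, 2.07 under GFP and 1.09 under JP2NT, while fatty acid oxidation and TCA cycle genes have nearly equal medians.

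Most transcripts of fuel oxidation fell under both vectors. Of 28 fatty acid oxidation genes, 24 fell under GFP and 25 under JP2NT, with medians of -0.645 and -0.619 and a median interaction of 0.11, or 0.0405 without TAC+JP2NT replicate 4. Cpt2, which takes part in the carnitine shuttle, had -1.13 and -0.77 (interaction 0.36, adjusted p = 0.37). Acaa2 and Hadh, enzymes of the beta-oxidation spiral, had -1.24 and -0.90, and -0.98 and -0.67. Their interactions were 0.34 and 0.31, and 0.17 and 0.16 without TAC+JP2NT replicate 4. Slc27a1, a fatty acid transport protein, had the larger fall under JP2NT (-1.34 beside -0.83, interaction -0.51, adjusted p = 0.425). Of 20 TCA cycle genes 17 and 15 fell, and of 32 nuclear oxidative phosphorylation genes 21 and 17, with median interactions of 0.0489 and 0.018. Without that library these turned to -0.0294 and -0.0408. In both lists 0 members had an unadjusted limma interaction p under 0.05. Of 21 genes of glycolysis and glucose uptake, 4 rose and 10 fell under GFP, and 3 rose and 13 fell under JP2NT. Mitochondrially encoded genes were not analysed here.

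Most cell cycle genes rose under both vectors, 18 of 26 under GFP and 15 under JP2NT, with medians of 1.32 and 1.12. Of the 18 that responded at least 2-fold, 9 were full, 8 partial and 1 larger under JP2NT. The median interaction was 0.0562, and 0 members had an unadjusted limma p under 0.05. The list mean by library was 0.866, 0.901, 0.988 and 1.95 in TAC+GFP and 1.26, 1.12, 1.43 and 0.359 in TAC+JP2NT, high in TAC+GFP replicate 4 and low in TAC+JP2NT replicate 4. Without the latter, the median interaction was 0.215.

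All 9 pericyte markers had a positive interaction, 3 at an unadjusted p under 0.05 and 0 called, with a median of 0.259. Under GFP 6 of them fell, and under JP2NT 2 fell. The list mean was -0.411, -0.478, -0.581 and -0.677 in TAC+GFP and -0.133, -0.127, -0.282 and -0.331 in TAC+JP2NT, without overlap. Notch3, the mural cell Notch receptor, was at 958, 999 and 979.9 in Sham+GFP and 530.0, 528, 511 and 436 in TAC+GFP, and at 795, 891 and 833 in Sham+JP2NT and 643, 645, 571 and 640.2 in TAC+JP2NT (interaction 0.54, adjusted p = 0.102). Abcc9, a subunit of the potassium channel of pericytes and cardiomyocytes, had -1.0 and -0.67. Vtn and Steap4 had -0.87 and -0.66 under GFP, where both fell, and -0.26 and -0.27 under JP2NT (adjusted p = 0.313 and 0.176). Plvap, a protein of fenestrated and endocardial endothelium, was at 262, 292, 452 and 282 in TAC+GFP and 147, 162, 183 and 130.3 in TAC+JP2NT, from shams of 133 to 179.7 and 161 to 181 (interaction -1.20, adjusted p = 0.102). Smoc1, another endocardial marker, had 0.97 under GFP and -0.16 under JP2NT (interaction -1.13, adjusted p = 0.188).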

How the data were processed

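The authors sequenced polyadenylated ventricular RNA as stranded paired-end libraries and, per the submitters' processing notes, the tools included STAR 2.6.1a, FastQC 1.0.0 and Salmon, with mm10. How genes were annotated, counted by strand and scaled is not given in the sources used here. As deposited by the authors, the values are a signal: gene counts divided by scale factors, as the values show (median-of-ratios factors are equal within the 7 GFP and within the 7 JP2NT libraries). Divided by the value of 1 read, 1.11 to 2.87% of values lay within 0.001 of a whole number, so whole reads were not recovered and no count test was run. The table lists 24972 genes, 18188 above 0; 26 names had become dates and 2 occurred more than once. After adding 1 and taking log2, genes that reached 10 in 3 or more samples entered limma-trend (limma 3.58.1, R 4.3.3) on 13 samples, with a mean per group, 9 residual and 5.69 prior degrees of freedom, two-sided, and Benjamini-Hochberg adjustment over 13208 genes. The method was tested on simulated data that gave each gene the same spread in all groups, which does not test groups of unequal spread. Changes are log2 differences of group means and folds come from them; n is 4 in each TAC group, 3 in the GFP shams and 2 in the JP2NT shams.

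Genes named are Jph2, those called in the interaction, the most positive and negative interactions with a group mean of at least 50, the strongest of each class, fixed cardiac genes and up to 4 per list by size of interaction, of which only some are printed; a few are not reported here. Fam32a and Foxc1 were added after their values were seen, with the genes at the 2-fold limit. The comparison, members, lists and rules were chosen with earlier results of these data known. Gene positions are from GENCODE M21.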

Additional observations from a re-analysis of the deposited data

Results flagged for a closer look

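In groups of 4 TAC libraries, 144 sets of values were searched for a library far from the other 3; chance marks about 1 in 20 groups, and 9 were marked, 3 of them in TAC+JP2NT replicate 4. Xirp2 was low in TAC+GFP replicate 3 (25480) and in TAC+JP2NT replicate 4 (16220). The median rise over responding genes was low in TAC+JP2NT replicate 4 (0.85). List means against own shams stood apart for hypertrophic stress genes (1.89) and neural and Schwann markers (-0.537) in TAC+GFP replicate 3, cell cycle genes in TAC+GFP replicate 4 (1.95), immediate early genes in TAC+JP2NT replicate 3 (0.223), circadian clock genes in TAC+JP2NT replicate 4 (0.207) and endocardial markers in TAC+JP2NT replicate 1 (-0.399).

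The response to TAC differed between the vectors, by the limma interaction term, in the 10 genes already described. Their interactions (log2) were -1.06 for Eif4ebp1, 0.879 for Mylk4, 1.35 for Scn4b, 2.6 for Rtn4r, -1.25 for Efhd2, 0.702 for Cpox, -0.975 for Gpx3, -0.895 for Retreg1, -0.848 for Hist1h1c and 1.27 for Gal3st3.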

How the results depend on the processing

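With n = 2 in Sham+JP2NT and a spread shared by groups that differ (median within-group SD of log2 values 0.107, 0.158, 0.0837 and 0.176), the number of interaction calls depends on the setting. It was 6 (2 negative) without a filter, 129 (57 positive, 72 negative) with 14 separate libraries, 4 (2 and 2) with close TAC pairs averaged, 83 (33 and 50) with a spread per group, and 3 negative under joint scaling. Leaving out each library gave 0 to 54 calls, 0 to 16 positive and 0 to 38 negative. All 10 genes were among the 129, the 83, the 54 and the 49 (without TAC+JP2NT replicate 3), and 7 were all the calls under joint scaling. With the replicate number as a block and 14 libraries there were 90 (40 and 50). Same-numbered samples did not deviate together: 0 of 19 pairs had a correlation over 0.1 (-0.169 to 0.0737), and 1 of 14 samples correlated best with its own number, so the numbers are not taken to pair samples. Calls under JP2NT ranged from 1853 (without Sham+JP2NT replicate 3) to 4960, and those under GFP from 5191 to 6660, over left-out libraries.

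Class counts moved with the pseudocount, the filter, the fold, the limits and the choice of responders. Responding genes were 550 with a pseudocount of 10, 571 at 50 or more in 3 samples, 2605 at 1.5-fold and 145 at 4-fold. Full responses were 200 (pseudocount 10), 964 (1.5-fold), 49 (4-fold) and 506 (limits from 0.7), and partial ones were 317 (pseudocount 10), 305 (at 50), 763 and 194 (chosen on the GFP or JP2NT response), 1247 (1.5-fold) and 80 (4-fold). Absent responses were 2 (pseudocount 10), 32 (no filter), 5 (at 50), 97 and 0 (chosen on the GFP or JP2NT response), 50 (1.5-fold) and 3 (4-fold). Those larger under JP2NT were 31 (pseudocount 10), 148 (no filter), 35 (at 50), 43 (chosen on GFP), 333 (1.5-fold), 13 (4-fold) and 58 (limits from 0.7). Those absent under GFP were 0 with a pseudocount of 10, at 50 or more, chosen on GFP and at 4-fold, 1 with close pairs averaged, 17 chosen on JP2NT and 11 at 1.5-fold. Leaving out libraries gave 859 to 1035 responding, 278 to 461 full, 389 to 526 partial, 13 to 21 absent, 79 to 167 larger and 1 to 5 absent under GFP, and a median ratio of 0.741 to 0.884.

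Of 2224 values of 94 genes, 2066 kept their direction and side of the threshold, 66 lost and 80 gained a call, and 12 changed sign, all of full responses. Ankrd2 (0.34) was -0.509 with a pseudocount of 10, -0.0766 with 14 libraries and with the replicate block, and -0.902 to 0.664 over left-out libraries. Left-out libraries gave Acot1 -0.331 to 0.184, Bmp10 -0.901 to 1.98, Nppb -0.351 to 0.126 and Lrp8 -0.876 to 0.0418. Of 1030 list medians, 1025 were marked as the same and 5 as moved, a coarse mark that does not show stable sizes. Without TAC+JP2NT replicate 4, the TCA cycle median went from 0.0489 to -0.0294 and that of hypertrophic stress genes from -0.482 to -0.292. The causes were not tested.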

Other observations

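The median interaction over all genes was 0.0065. Values of other lists without TAC+JP2NT replicate 4 follow where they differ by over 1.5 times. Immediate early genes rose in 12 of 19 under GFP and 7 under JP2NT, with a median interaction of -0.0675, or -0.199 without that library. The integrated stress response list, which holds Eif4ebp1, had 7 and 6 of 17 risen and a median interaction of -0.132. The oxidative stress list, which holds Gpx3, had 9 and 8 of 20 risen, with a median of -0.117, or -0.0459 without it. In that list Nox4, an NADPH oxidase, rose by 3.07 and 1.85 (interaction adjusted p = 0.337). The median of MEF2 factors and targets was -0.0657. Medians with and without TAC+JP2NT replicate 4 were -0.0539 and -0.0969 for sarcomere genes, -0.0171 and 0.176 for interferon-stimulated genes, and 0.0893 and 0.0245 for angiogenesis genes. In the MEF2, sarcomere, interferon-stimulated and angiogenesis lists 0 members were called by limma; 2, 2, 2 and 1 were negative and 0, 1, 1 and 1 positive at an unadjusted p under 0.05. Over MHC class II genes, the median of JP2NT minus GFP after the offset was 0.508 in sham and 0.227 in TAC hearts. Their median interaction was -0.286, or -0.118 without TAC+JP2NT replicate 4. Among the 17 cytokine and chemokine genes tested, 5 rose and 4 fell under GFP, and 2 rose and 2 fell under JP2NT, with a median interaction of 0.191, or 0.305 without it.

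Of the cell type lists, 8 atrial markers had a median interaction of -1.34 and 6 endocardial markers -0.564. For the atrial list the larger part lay in the shams, where the median of JP2NT minus GFP after the offset was 1.02, beside 0.188 in TAC hearts. For the endocardial list these values were 0.204 and -0.365. The 4 erythroid markers tested had -0.462. Erythroid markers summed to 7010 to 8670 in Sham+GFP, 16400 to 22900 in TAC+GFP, 8400 to 9740 in Sham+JP2NT and 7680 to 18300 in TAC+JP2NT.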
